A study of Mus musculus with 20 samples.

Results

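Filamins and genes tied to actin and to serum response factor (SRF) were followed in cultured mouse hippocampal neurons after a brief glutamate pulse. The 9 genes were Flna, Flnc, Fblim1, Srf, Actb, Actg1, Vcl, Tln1 and Myh9, taken by symbol from a deposited count table of 24419 genes. Flna and Fblim1 had been picked because their counts were higher with a zinc chelator than with added zinc. Their values in any comparison that uses those libraries are therefore a description without a test. The other 7 were chosen by function, but with earlier results of these data known, so that their tests are not independent of that choice. All 9 passed the expression filter that left 14411 genes for testing.

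The study asked how gene expression after glutamate depends on zinc. Hippocampal tissue of C57BL6 mouse embryos at embryonic day 18, pooled from 4 embryos, was dissociated and grown for 10 days. Dividing cells were depleted with cytosine arabinoside at 4 µM between days 3 and 6. Cultures then received a 2-min pulse and were lysed after a further 90 min at 37 °C. The TPA group received 50 µM glutamate with 10 µM TPA, or tris(2-pyridylmethyl)amine, a zinc chelator also given for 1 min beforehand. The zinc group received 50 µM glutamate with 10 µM ZnCl2, the glutamate group 50 µM glutamate alone, and the control group medium alone. Each group had 5 libraries, and no group analysed here had zinc or TPA without glutamate.

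SRF is a transcription factor that binds a short DNA element, the CArG box, and drives genes of the actin cytoskeleton together with the MRTF coactivators (Mkl1 and Mkl2) and many early response genes together with the TCF factors (Elk1, Elk3 and Elk4). MRTFs are held inactive by unpolymerised actin, so that actin assembly releases them. Filamins crosslink actin filaments and anchor them to membrane receptors, talin and vinculin join integrins to actin at adhesions, and in neurons SRF is known for roles in migration, neurite growth and activity-dependent transcription.

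Library totals ran from 28692470 to 40934630 counts, and a count of 3 equalled 0.0733 to 0.105 CPM (counts relative to library size), which covers counting error only. All 8 neuron markers and all 8 astrocyte markers passed the filter, with summed levels of 5950.0 to 6870.0 CPM and 748 to 963 CPM over the 20 libraries. Most of the astrocyte sum was Slc1a2, at 650 CPM on average. Slc1a3 averaged 98.9, Gfap 43.8 and Aldoc 37.7 CPM, and the rest 4.18 to 8.46 CPM. Of 10 mural cell and fibroblast markers 9 passed, of 8 endothelial markers 3, of 8 microglia markers 4, and of 5 erythroid markers 0, with 4 of these at 0 in every library. In bulk RNA, fewer cells of a type and less RNA per cell cannot be told apart. Glutamate replicates 4 and 5 and zinc replicate 5 lay farthest from the other libraries of their groups.

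Promoter windows from RefSeq (build GRCm38.p6, 250 bases before to 50 after each start) were matched for 8 of the 9 genes, and Actb had no entry. The windows were searched for the 10-letter CArG box, whose pattern reads the same on both strands and whose matches could overlap. Srf held 2 boxes, 82 and 62 bases before its start, Actg1 held 1 at 90 bases and Vcl 1 at 227 bases. No exact match was found in these windows of Flna, Flnc, Fblim1, Tln1 or Myh9. A site within 1 mismatch was present for Flna and in 1 window of Flnc, as in 21.1% of all windows. Acta2 and Fos, listed below as SRF targets, also had 0 exact matches, so that a lack of one does not show a lack of SRF binding. Among all 32851 windows 535 (1.63%) held a box and 6 (0.0183%) held at least 2. The 250 bases before the start of the 3 genes with a box, and of Flna, which has no exact match there, are shown 5′ to 3′ on the gene's strand, with the boxes in capitals.
Srf (chr17:46556163-46556412, minus strand): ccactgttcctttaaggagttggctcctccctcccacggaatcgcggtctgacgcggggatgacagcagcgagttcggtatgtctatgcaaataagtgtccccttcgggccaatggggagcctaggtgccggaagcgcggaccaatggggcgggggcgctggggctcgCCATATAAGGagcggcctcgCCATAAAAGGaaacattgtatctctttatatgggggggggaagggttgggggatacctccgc
Actg1 (chr11:120348496-120348745, minus strand): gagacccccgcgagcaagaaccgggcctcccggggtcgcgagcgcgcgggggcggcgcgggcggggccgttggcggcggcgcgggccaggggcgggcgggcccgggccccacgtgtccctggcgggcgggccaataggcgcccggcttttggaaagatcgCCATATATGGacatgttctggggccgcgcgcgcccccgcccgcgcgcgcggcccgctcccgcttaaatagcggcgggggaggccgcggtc
Vcl (chr14:20929148-20929397, plus strand): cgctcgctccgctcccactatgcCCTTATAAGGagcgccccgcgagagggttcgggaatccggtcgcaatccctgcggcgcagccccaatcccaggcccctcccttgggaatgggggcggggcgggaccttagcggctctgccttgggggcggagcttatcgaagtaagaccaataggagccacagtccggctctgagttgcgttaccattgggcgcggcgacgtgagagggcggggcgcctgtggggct
Flna (chrX:74246535-74246784, minus strand): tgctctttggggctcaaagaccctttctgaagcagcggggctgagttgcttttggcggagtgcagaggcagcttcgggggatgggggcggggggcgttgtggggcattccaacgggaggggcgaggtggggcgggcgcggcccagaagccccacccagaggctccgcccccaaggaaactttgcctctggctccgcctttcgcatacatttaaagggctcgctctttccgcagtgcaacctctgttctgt

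The 9 genes lay between the 43.5th and the 99.99th percentile of expression among the 24419 genes. On the deposited TPM scale (which corrects for gene length and library size), Actb averaged 4132 over the 20 libraries and Actg1 2243. These encode the cytoplasmic actins. Flna followed at 73.9 TPM, Srf at 36.7, Vcl at 16.9 and Myh9 at 11.2. Fblim1 at 5.67 TPM and Tln1 at 5.56 overlapped in range, whereas every other pair of neighbours in the order was separated in all 20 libraries. Flnc was lowest, at 0.537 TPM. The order was the same when counts were divided by the deposited gene lengths.

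**Figure D1:**
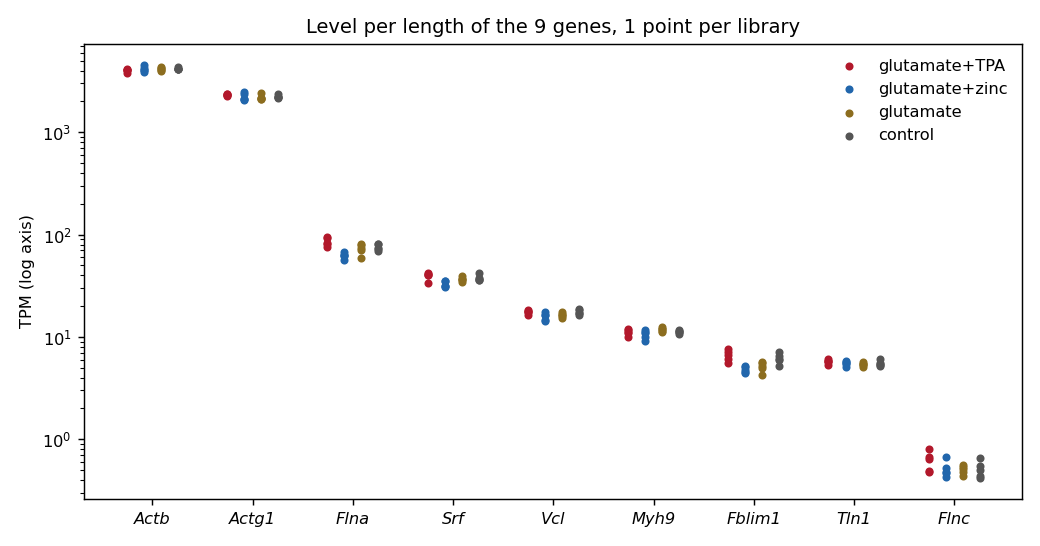
Deposited TPM (log axis) of the 9 genes, ordered by mean level, with 1 point per library and colours for the TPA, zinc, glutamate and control groups. Levels ran from 4132 TPM on average for Actb to 0.537 TPM for Flnc and, between neighbours in the order, libraries overlapped only for Fblim1 and Tln1.

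Talin 1 was the minor talin, and myosin IIA ranked second in its family. Tln1 supplied only 15.7% ± 1.35 of talin TPM in TPA cultures, 16.04% ± 2.75 in zinc, 15.1% ± 2.08 in glutamate and 15.2% ± 1.01 in control (SD, n = 5 each), the rest being Tln2. Myh9, the heavy chain of non-muscle myosin IIA, supplied 6.14% ± 0.249, 6.30% ± 0.341, 6.79% ± 0.372 and 6.37% ± 0.0826 of non-muscle myosin II heavy chain TPM in the same order of groups, and Myh10 held 91.9% to 93.7% in every library. Myh14 held the least, at 0.541% to 0.868%.

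Flna encodes filamin A, the actin crosslinker (mm10 chromosome X, 74223461 to 74246534, minus strand). TPA libraries 1 to 5 held 215, 251, 229, 230.3 and 266 CPM of Flna, and zinc libraries 173, 172, 158, 178 and 189.5 CPM. Glutamate libraries held 215, 162, 191, 205 and 225 CPM, and control libraries 221, 192, 202, 210.1 and 224 CPM. All 5 TPA libraries lay above all 5 zinc libraries, the property for which the gene was picked, while glutamate libraries overlapped both and control libraries overlapped the TPA libraries but lay above every zinc library. Means were 238 ± 19.9 CPM with TPA, 174 ± 11.3 with zinc, 199 ± 24.5 with glutamate and 209.7 ± 13.3 in control (SD, n = 5 each). The log2 fold change was 0.45 (SE 0.07) for TPA over zinc, 0.26 (SE 0.07) for TPA over glutamate and -0.20 (SE 0.07) for zinc over glutamate, and the last 2 share the glutamate libraries.

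Fblim1 encodes migfilin, a LIM-domain protein that binds filamin at cell adhesions (chromosome 4, 141576062 to 141606052, minus strand). Its level was 7.63, 6.85, 6.50, 5.90 and 7.96 CPM in TPA libraries and 5.47, 4.75, 4.67, 5.43 and 4.98 CPM in zinc libraries. Glutamate libraries held 5.38, 5.24, 4.39, 6.05 and 5.93 CPM, and control libraries 6.37, 5.46, 6.82, 6.33 and 7.45 CPM. Again every TPA library lay above every zinc library, as selected, and control libraries overlapped the TPA range and, through replicate 2, the zinc range. The log2 fold change was 0.46 (SE 0.10) for TPA over zinc and 0.37 (SE 0.10) for TPA over glutamate. For zinc over glutamate it was -0.10 (SE 0.10). Flna and Fblim1 were the only 2 of the 9 genes whose TPA and zinc libraries did not overlap; 3.13% of all tested genes had that property, and no inference is drawn for genes chosen on it.

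Flnc, the filamin of muscle (chromosome 6, 29433153 to 29461888, plus strand), was near the lower end of measurement at 44 to 78 counts a library. TPA libraries held 1.50, 2.42, 1.98, 1.50 and 2.02 CPM, zinc libraries 1.59, 1.28, 1.42, 2.06 and 1.48 CPM. Glutamate libraries held 1.35 to 1.69 CPM (median 1.54) and control libraries 1.28 to 1.99 CPM (median 1.53). The groups overlapped widely. TPA over zinc gave a log2 fold change of 0.27 (SE 0.15, 95% interval -0.05 to 0.59, edgeR adjusted p = 0.409).

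**Figure D2:**
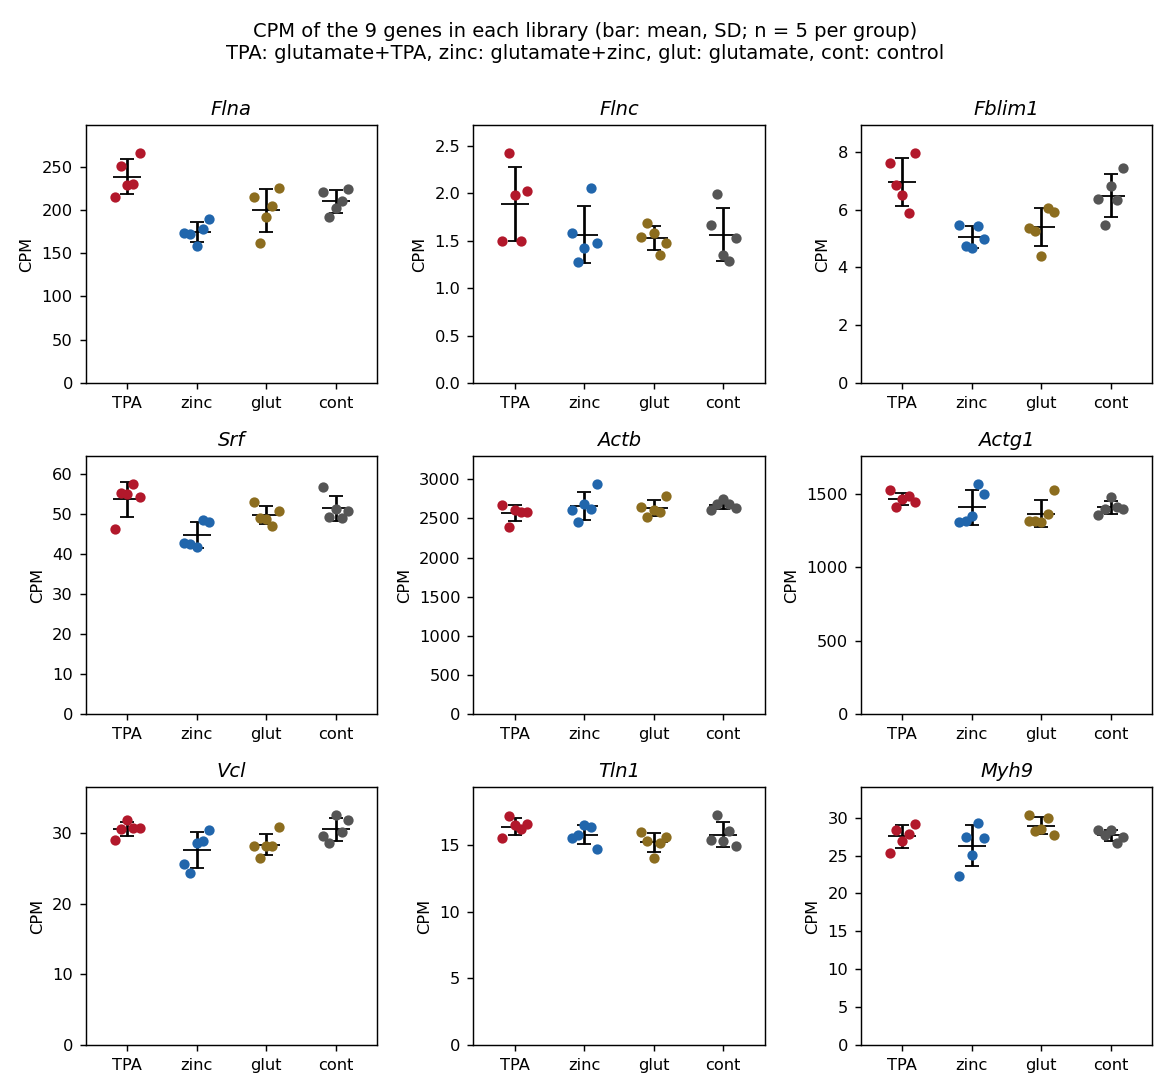
CPM of each of the 9 genes in each library (points), with group mean and SD (bars, n = 5), groups from left to right TPA, zinc, glutamate and control, each axis starting at 0. Flna and Fblim1 show separate TPA and zinc libraries, and in the other 7 genes these groups overlap.

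Srf (chromosome 17, 46546839 to 46556162, minus strand) was the only gene of the 7 chosen by function to pass the threshold in TPA against zinc. Srf levels were 46.3, 55.3, 55.0, 57.5 and 54.2 CPM in TPA libraries, against 42.7, 42.5, 41.8, 48.4 and 48.0 CPM in zinc libraries. Glutamate libraries held 53.1, 49.0, 48.7, 47.0 and 50.8 CPM, and control libraries 56.7, 49.1, 51.2, 49.1 and 50.7 CPM. TPA replicate 1 fell within the zinc range and the other 4 TPA libraries lay above it, while the glutamate and control means, 49.7 and 51.4 CPM, lay between those of TPA and zinc. Srf rose 1.20-fold with TPA relative to zinc (log2 fold change 0.26, SE 0.06, 95% interval 0.14 to 0.38, edgeR adjusted p = 0.0412). Over all genes 74 of 14411 (0.513%) passed in this comparison, 51 (0.354%) of them higher with TPA, beside 1 of the 7.

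The Srf call was close to the threshold. Its transcript is 64.4% GC, higher than 99.4% of tested genes, and in TPA against zinc the upper quartile of genes by GC had a median log2 fold change of 0.05, against -0.05 for the lower quartile. With a GC offset within each library, chosen after seeing the data, the Srf log2 fold change was 0.16 (edgeR adjusted p = 0.209). That of Flna was 0.43 and that of Fblim1 0.45, in 2 genes picked for high values in this comparison. The part of GC content in the Srf difference was not tested. The adjusted p for Srf was 0.124 in a fit of the TPA and zinc groups alone, and it lay between 0.0761 and 0.162 without zinc replicate 1, 2 or 3 or TPA replicate 2, 3, 4 or 5. Without zinc replicate 4, zinc replicate 5 or TPA replicate 1 the edgeR adjusted p was 0.00926, 0.0249 and 0.00794. In the authors' deposited DESeq2 table of this comparison, whose fold changes run as zinc over TPA, Srf had a log2 fold change of -0.21 (adjusted p = 0.00401) and, of the other 6 genes chosen by function, none passed. That table rests on the same libraries and is not an independent result. A DESeq2 Wald test run here gave 0.26 for Srf, as TPA over zinc (adjusted p = 0.00402). Between each treatment and glutamate alone the log2 fold change was 0.11 (SE 0.06, edgeR adjusted p = 0.718) with TPA and -0.15 (SE 0.06, edgeR adjusted p = 0.741) with zinc.

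**Figure D3:**
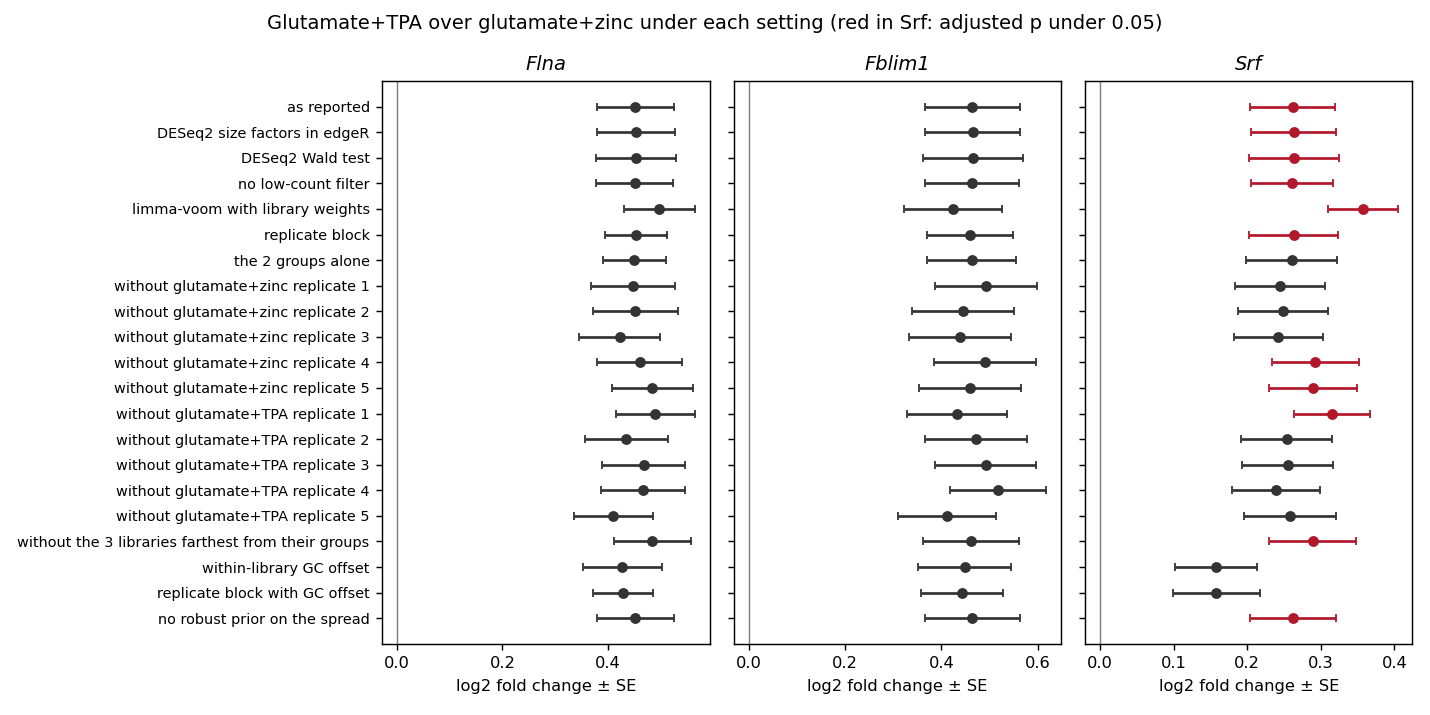
Log2 fold change ± SE of Flna, Fblim1 and Srf for TPA over zinc under each way of analysing the counts, with red marking an adjusted p under 0.05 for Srf (Flna and Fblim1 carry no test). Every value lies above 0, which for Flna and Fblim1 is the direction they were picked for. The lowest Srf values, 0.16, are those with the GC offset.

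The cytoplasmic actin genes are classical SRF targets and were the most abundant of the set. Actb (chromosome 5, 142903118 to 142906754, minus strand) held 2668, 2389.9, 2602, 2583 and 2588 CPM in TPA libraries and 2614, 2455, 2691, 2615 and 2939.7 CPM in zinc libraries. Glutamate libraries held 2521 to 2791 CPM (median 2603) and control libraries 2609 to 2749.5 CPM (median 2679). All groups overlapped, and TPA over zinc gave a log2 fold change of -0.05 (SE 0.04, 95% interval -0.14 to 0.03, edgeR adjusted p = 0.556), the only negative value among the 9 genes. Actg1 (chromosome 11, 120345690 to 120348484, minus strand) held 1525, 1409, 1466, 1484 and 1444 CPM in TPA libraries and 1309, 1312, 1350.2, 1567 and 1503 CPM in zinc libraries. Glutamate libraries held 1311 to 1529 CPM (median 1316) and control libraries 1354 to 1481 CPM (median 1399.8). Zinc replicates 4 and 5 reached into or above the TPA range, and the log2 fold change for TPA over zinc was 0.06 (SE 0.05, 95% interval -0.05 to 0.16, edgeR adjusted p = 0.607).

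The balance between the actins within a library does not depend on scaling between libraries. Actb over Actg1, as a ratio of TPM, was 1.73, 1.68, 1.75, 1.72 and 1.77 in TPA libraries, 1.97, 1.85, 1.97, 1.65 and 1.93 in zinc, 1.99, 1.89, 1.96, 1.87 and 1.80 in glutamate, and 1.90, 1.89, 1.83, 1.88 and 1.86 in control. All 5 TPA libraries lay below all glutamate and all control libraries, and below every zinc library except replicate 4, the lowest of the 20. Means were 1.73 ± 0.0365 with TPA and 1.90 ± 0.0739 with glutamate (SD, n = 5 each), a difference of -0.14 in log2 ratio (2-sided exact permutation p = 0.00794, the smallest that 5 against 5 can give, and 0.0397 adjusted over 5 comparisons). The adjusted exact p was 0.0794 without any 1 of the TPA libraries. Those tests had fewer libraries, and in each the remaining TPA libraries still lay below every glutamate library. TPA against zinc gave -0.11 (exact permutation p = 0.0635, adjusted 0.159) and, without zinc replicate 4, -0.16 (adjusted 0.0198). Zinc against glutamate gave -0.02 (adjusted exact permutation p = 0.730) and glutamate against control 0.02 (adjusted 0.562), while all stimulated libraries against control gave -0.03 (adjusted 0.562). The coding sequences of these genes are near-identical, so that reads could be shared between them in counting, and the part of this in the ratio was not tested.

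Vcl, which encodes vinculin, a link between talin and actin (chromosome 14, 20929433 to 21033673, plus strand), held 29.0, 30.7, 31.9, 30.8 and 30.7 CPM in TPA libraries. Zinc libraries held 25.6, 24.4, 28.5, 28.9 and 30.5 CPM, glutamate libraries 26.5 to 30.8 CPM (median 28.2) and control libraries 28.5 to 32.6 CPM (median 30.1). Of the TPA libraries 4 lay above every zinc library, and replicate 1 fell within the zinc range. The log2 fold change for TPA over zinc was 0.15 (SE 0.06, 95% interval 0.03 to 0.27), with an unadjusted p of 0.0138 and an edgeR adjusted p of 0.187.

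Tln1, which encodes talin 1, the integrin activator (chromosome 4, 43531513 to 43562583, minus strand), varied within groups by 3.76% to 5.86% (SD over mean). Its level ran from 15.5 to 17.2 CPM with TPA, 14.7 to 16.5 CPM with zinc, 14.0 to 15.98 CPM with glutamate and 14.9 to 17.3 CPM in control. The groups overlapped in every comparison, with a log2 fold change of 0.05 (SE 0.05, 95% interval -0.05 to 0.16, edgeR adjusted p = 0.645) for TPA over zinc. Myh9 (chromosome 15, 77760585 to 77842175, minus strand) held 25.4, 28.3, 26.9, 27.8 and 29.2 CPM in TPA libraries and 22.4, 27.5, 25.1, 29.3 and 27.3 CPM in zinc libraries. Glutamate libraries held 30.4, 28.2, 28.5, 30.0 and 27.7 CPM and control libraries 26.6 to 28.4 CPM (median 27.7). Myh9 was highest on average in glutamate libraries, unlike the other 8 genes, and its log2 fold change was 0.06 (SE 0.06, edgeR adjusted p = 0.614) for TPA over zinc and -0.14 (SE 0.06, edgeR adjusted p = 0.753) for zinc over glutamate.

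Counted together, 8 of the 9 genes had a positive log2 fold change for TPA over zinc, with a median of 0.15, Flna and Fblim1 being positive by selection. Of the 7 chosen by function 6 were positive, with a median of 0.06. Over all tested genes the median was -0.0011 and 49.7% were positive. In TPA against glutamate 5 of those 7 were positive (51.3% of all genes were). In zinc against glutamate 4 of 7 were (50.3% of all genes), and these comparisons share the glutamate libraries. None of the 7 passed edgeR's threshold in either comparison, nor did any of the 14411 genes (0%). At an unadjusted p under 0.05 there were 1 of 7 and 1030 genes in TPA against glutamate, and 2 of 7 and 862 genes in zinc against glutamate. DESeq2 called 0 of the 7 in both and 1 gene over the whole table in each.

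**Figure D4:**
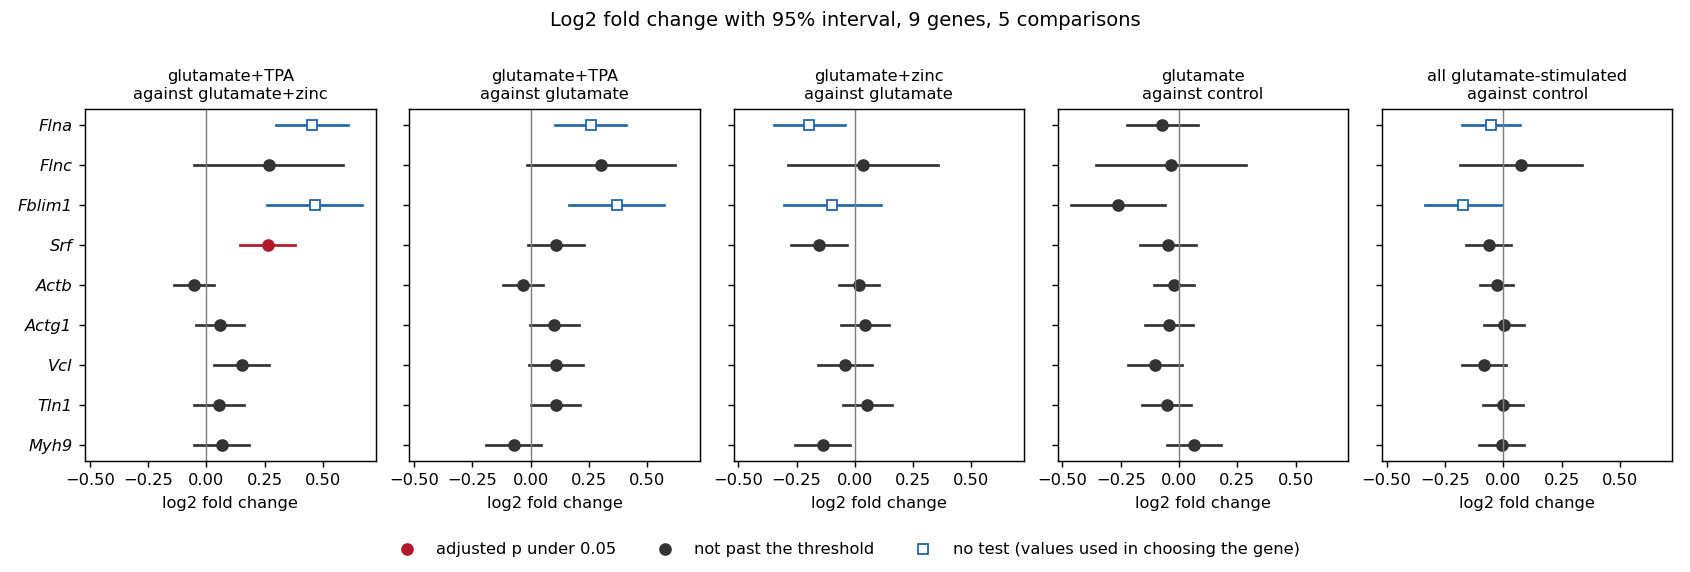
Log2 fold change with 95% interval for the 9 genes in 5 comparisons, from left to right TPA against zinc, TPA against glutamate, zinc against glutamate, glutamate against control and all stimulated libraries against control. Red marks an adjusted p under 0.05, which only Srf reached, in the first panel, and open squares mark values that share libraries with those used to pick Flna and Fblim1.

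The glutamate pulse by itself moved none of the 9 genes past the threshold at 90 min. Glutamate against control uses neither the TPA nor the zinc libraries, so that all 9 were tested. The log2 fold change was -0.07 for Flna (SE 0.07, 95% interval -0.22 to 0.08, edgeR adjusted p = 0.977) and -0.05 for Srf (SE 0.06, 95% interval -0.17 to 0.07, edgeR adjusted p = 0.987). Fblim1 averaged 5.398 ± 0.660 CPM with glutamate and 6.48 ± 0.731 CPM in control (SD, n = 5 each), with 4 of 5 control libraries above every glutamate library. Its log2 fold change was -0.26 (SE 0.10, unadjusted p = 0.0130, edgeR adjusted p = 0.950). It was the only one of the 9 at an unadjusted p under 0.05, beside 717 of all genes. Only 3 genes (0.0208%) passed over the whole table by edgeR and 12 by DESeq2, which called 0 of the 9. The signs were negative for 8 of the 9 genes, Myh9 being the exception at 0.06 (SE 0.06, edgeR adjusted p = 0.967). Of all tested genes 48.9% were positive in this comparison.

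With all 15 stimulated libraries set against the 5 control libraries, 0 of the 7 genes chosen by function passed edgeR's threshold, 0 were at an unadjusted p under 0.05 and DESeq2 called 0. Their log2 fold changes ran from -0.08 for Vcl (SE 0.05) to 0.08 for Flnc (SE 0.13). Across all genes, 7 (0.0486%) passed. Early response genes of the SRF-TCF list rose in this comparison, 3 of 14 by edgeR, with a list median of 0.30 beside -0.00053 over all genes. Fosb, a subunit of AP-1, averaged 16.97 ± 2.98 CPM in stimulated libraries (n = 15) and 8.05 ± 0.693 CPM in control (SD, n = 5), a log2 fold change of 1.07 (SE 0.10, edgeR adjusted p = 9.48e-06). Fos, its relative, had 1.08 (SE 0.17, edgeR adjusted p = 0.0158) and the zinc-finger factor Egr2 0.68 (SE 0.13, edgeR adjusted p = 0.0491). The edgeR adjusted p of Fos was 0.0563 with no expression filter and 0.0799, 0.117 and 0.0899 without control replicate 2, 3 or 4. In each of these 4 fits 1 gene of the 14 passed, and over single libraries left out the count was 1 to 5. In glutamate alone against control 1 of the 14, Fosb, passed.

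The wider pathway was covered by 8 lists holding 140 genes apart from the 9, of which 136 were in the table and 130 were tested. These lists were also chosen with earlier results of these data known. In TPA against zinc 1 of the 130 rose and 0 fell. Of the 130, 79 were positive, beside 49.7% of all tested genes, with a median log2 fold change of 0.03. As the background for these lists, 2312 of the 14411 genes (16%) were at an unadjusted p under 0.05 in this comparison and DESeq2 called 456. The gene that rose was Acta2, which encodes the smooth muscle actin and stands in both the list of SRF-MRTF cytoskeletal targets (1 of 27) and that of actins and actin turnover (1 of 21). Its counts were low, at 46, 23, 24, 17 and 33 in TPA libraries, against 10, 21, 8, 15 and 6 in zinc libraries. Glutamate libraries held 31, 15, 20, 17 and 18 counts, and control libraries 25, 41, 41, 29 and 34. Every TPA library had a higher CPM than every zinc library, at 0.825 ± 0.248 CPM with TPA and 0.323 ± 0.150 CPM with zinc (SD, n = 5 each), and the control mean of 0.888 ± 0.156 CPM was near that with TPA. The log2 fold change was 1.34 (SE 0.29, edgeR adjusted p = 0.0363). The adjusted p lay between 0.0533 and 0.149 without zinc replicate 1 or 3 or TPA replicate 1, 2 or 5 and was 0.103 in a fit of the TPA and zinc groups alone, and DESeq2 gave none for this gene. Mural cell and fibroblast markers summed to 11.3 to 14.3 CPM with TPA and 10.9 to 13.2 CPM with zinc, and their part in the Acta2 difference was not tested. Of the SRF-MRTF targets 7 of 27 were at an unadjusted p under 0.05 (16% of all genes were), and DESeq2 called 0. Of these 27, 17 were positive, with a median of 0.04. The list of actins and actin turnover had 1 of 21 at an unadjusted p under 0.05, 0 by DESeq2 and a median of -0.0011.

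**Figure D5:**
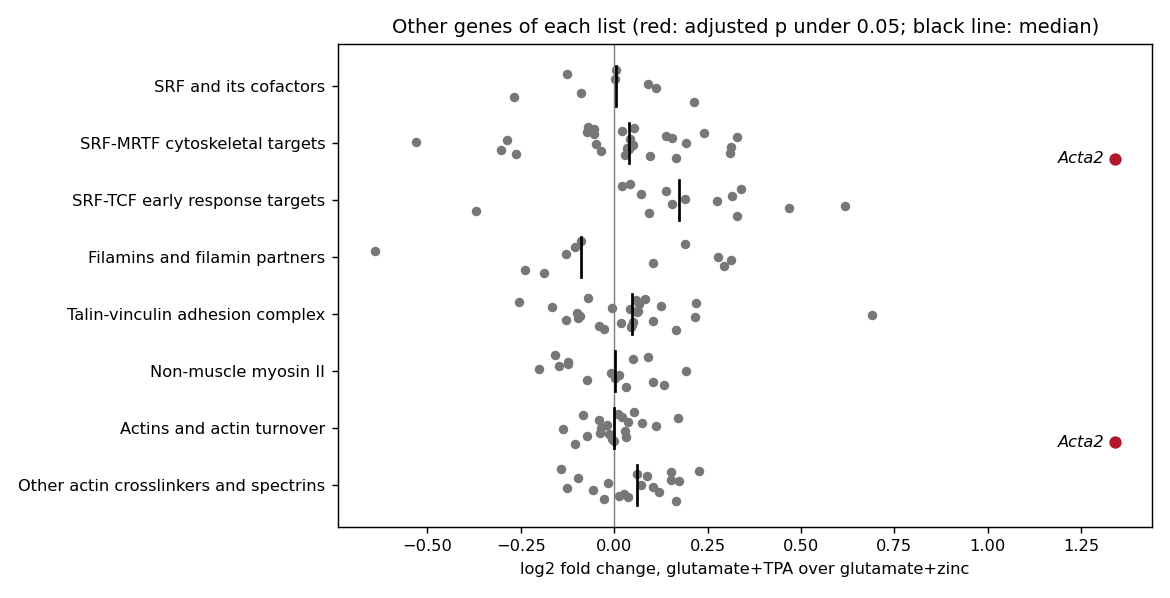
Log2 fold change for TPA over zinc of every tested gene in the 8 pathway lists, leaving out the 9 genes, with a black line at each list's median. Acta2 (red, in 2 lists at 1.34) was the only gene past the threshold, and the list medians lie between -0.09 and 0.17.

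The list of SRF-TCF early response targets had the highest median in TPA against zinc, at 0.17, with 13 of 14 positive (49.7% of all genes were). By edgeR 0 of the 14 passed, 7 were at an unadjusted p under 0.05 (16% of all genes were), and DESeq2 called 3, namely Egr1, Egr2 and Egr4. Egr1, a zinc-finger transcription factor, held 56.9, 50.3, 55.2, 53.3 and 63.1 CPM in TPA libraries, against 46.7, 39.8, 35.4, 39.3 and 40.6 CPM in zinc libraries, and these ranges did not overlap. Glutamate libraries held 34.7 to 57.1 CPM and control libraries 29.3 to 41.8 CPM. For TPA over zinc the log2 fold change of Egr1 was 0.47 (SE 0.11, edgeR adjusted p = 0.0592), and that of Egr2 was 0.62 (SE 0.15, edgeR adjusted p = 0.0564). Fos, by contrast, gave 0.19 (SE 0.19, edgeR adjusted p = 0.660) with a wide spread in zinc libraries, at 77.8 ± 5.02 CPM with TPA and 68.1 ± 20.7 CPM with zinc (SD, n = 5 each).

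Among SRF and its cofactors 0 of 8 passed by edgeR, 3 were at an unadjusted p under 0.05, beside the 16% of all genes, and DESeq2 called Elk1 and Rhoa. Elk1, a TCF factor, averaged 65.7 ± 3.00 CPM with TPA and 56.7 ± 4.13 CPM with zinc (SD, n = 5 each), with no overlap, and gave 0.21 (SE 0.06, edgeR adjusted p = 0.0786). With glutamate alone Elk1 averaged 60.4 CPM, and in control 64.4 CPM. Rhoa, the GTPase upstream of actin assembly and MRTF, gave -0.13 (SE 0.04, edgeR adjusted p = 0.0927), and Mkl1 0.09 (SE 0.04, edgeR adjusted p = 0.256). The list's median was 0.0041.

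Filamin partners likewise had 0 of 11 past the threshold by edgeR, with 5 at an unadjusted p under 0.05 beside the same 16%, and DESeq2 called 2, Fam101b among them. Fam101b, which encodes a refilin that binds filamins, had 9.93 ± 0.835 CPM with TPA and 8.12 ± 0.472 CPM with zinc (SD, n = 5 each), without overlap, and gave 0.29 (SE 0.08, edgeR adjusted p = 0.0777). Itgb1, the beta-1 integrin whose tail binds filamin and talin, was lower with TPA, also without overlap. It was at 101.7 ± 1.65 CPM with TPA and 111 ± 4.07 CPM with zinc (SD, n = 5 each), with -0.13 (SE 0.04, edgeR adjusted p = 0.121). Acta2, Egr1, Elk1, Fam101b and Itgb1 were taken for a small p in this comparison, and 3.13% of all tested genes had no overlap. The median of the filamin partner list was -0.09. Without zinc replicate 4, Elk1, Rhoa, Egr1, Egr2 and Fam101b each passed, at edgeR adjusted p values between 0.0208 and 0.0408, and Elk1 also without zinc replicate 5 (0.0451). Itgb1 passed too without zinc replicate 4, in the negative direction (-0.14, edgeR adjusted p = 0.0464). For talin and vinculin partners, 0 of 26 passed by edgeR, 5 were at an unadjusted p under 0.05 and DESeq2 called 0, with 16 positive and a median of 0.05. Non-muscle myosin II genes had 0 of 15 by both tools, 4 at an unadjusted p under 0.05 and a median of 0.0018. Other crosslinkers and spectrins had 0 of 19 by both tools, 4 at an unadjusted p under 0.05 and a median of 0.06. These counts of 5 of 26, 4 of 15 and 4 of 19 stand beside the 16% of all genes. Without zinc replicate 4 edgeR called 1 of 26, 3 of 15 and 2 of 19 genes in these lists, and 899 over all genes.

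Over the 20 libraries, the genes whose log2 CPM followed Flna most closely, among the 8929 genes averaging 10 CPM or more, were Miat (Pearson r = 0.94), Atxn7l3 (0.90), Ntng2 (0.90), Vwa5b2 (0.89) and Maz (0.89). Within the set Srf (0.78), Fblim1 (0.76) and Vcl (0.67) were most alike to Flna, Actg1 (0.37), Myh9 (0.35), Flnc (0.35) and Tln1 (0.23) less so, and Actb had -0.11. The median over all genes was 0.00082 and the value exceeded by 5% of them was 0.65. The libraries share their groups and composition, Flna and Fblim1 were picked on part of these values, and the correlations are given as a description.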

How the data were processed

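Stranded mRNA libraries of 20 cultures (4 groups of 5) were sequenced, according to the labels. Upstream tools, from the submitters' processing notes, included DESeq2 1.14.1 in R 3.3.0, featureCounts, SAMtools 1.3.1, HISAT2 2.1.0 with build mm10, and Trimmomatic 0.36. The strand setting of the counting was not given in the sources used here, and overlapping or antisense genes may share reads. The authors deposited whole-number gene counts, and every test across genes used these. The deposited TPM values were used for levels between genes, talin and myosin family shares and the Actb to Actg1 ratio. In the authors' deposited comparison tables, log2 fold changes and adjusted p-values were read as given. All per-sample columns were matched to labels.

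All 20 libraries entered 1 quasi-likelihood fit in edgeR 4.0.16 (R 4.3.3) with 4 group means, default expression filter (14411 genes holding 99.98% of counts), TMM scaling, a robust prior on the spread and Benjamini-Hochberg adjustment over all tested genes at a threshold of 0.05. CPM values use TMM-scaled library sizes, with a prior count of 2 on the log2 scale. The ratio was tested by 2-sided exact permutation over libraries. The model was tested on simulated data. The 9 genes and the 8 pathway lists were chosen with earlier results of these data known. Beyond the 9 genes, the text names up to 3 genes per list with the smallest unadjusted p in TPA against zinc, up to 2 in all stimulated libraries against control, and the 5 genes most like Flna; Fosb, Egr2, Fos and Egr1 in further comparisons follow from these. The result for a further gene taken by this rule is not reported here. Listed genes Diaph1, Diaph2, Epb41l1 and Epb41l3 were not analysed here. Since tissue was pooled from 4 embryos, the p-values cover no more than the spread between these libraries, which may be technical. Other settings were DESeq2 1.42.0's size factors and Wald test, no filter, limma 3.58.1 voom with library weights, the replicate number as a block, the compared groups alone, and each library left out. Chosen after seeing the data were an offset on transcript GC content within each library (loess span 0.5), the same with the block, no robust prior, and leaving out the 3 libraries farthest from their groups.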

Additional observations from a re-analysis of the deposited data

Results flagged for a closer look

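In 40 sets of 5 libraries (the 9 genes and the actin ratio in each group), the gap between the extreme library and its nearest neighbour was compared with the whole range. Chance flags about 1 in 20 such sets, and 2 stood out. Srf in control replicate 1, at 56.7 CPM, stood above the other 4 control libraries, which lay between 49.1 and 51.2 CPM (gap over range 0.716). Actg1 in glutamate replicate 5, at 1529 CPM, stood above the other 4 glutamate libraries, which lay between 1311 and 1361 CPM (gap over range 0.768). Glutamate replicate 5 was also 1 of the 3 libraries farthest from their groups.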

How the results depend on the processing

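The 45 log2 fold changes of the 9 genes were recomputed 981 times in all. Of these, 931 kept their direction and side of the threshold or, for untested values of Flna and Fblim1, moved by less than the SD within groups. Flna and Fblim1, whose sign for TPA over zinc was set by how they were picked, ran at 0.41 to 0.50 and 0.41 to 0.52. The Srf value (0.26) was 0.24 to 0.32 with single libraries left out, 0.26 in the 2 groups alone, 0.16 with the GC offset and 0.16 with the offset and the block, past the threshold in none of these last 3. Srf did pass with library weights (0.36, adjusted p = 0.000126) and without the 3 farthest libraries (0.29, adjusted p = 0.0069). Vcl passed the threshold for TPA over zinc with library weights (0.21, adjusted p = 0.00576) and without the 3 farthest libraries (0.19, adjusted p = 0.032). With weights, Actg1 also passed for TPA over zinc (0.11, adjusted p = 0.0226) and TPA over glutamate (0.13, adjusted p = 0.0381), and Srf for zinc over glutamate (-0.23, adjusted p = 0.0459).

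Among these fold changes signs reversed only for values near 0. For zinc over glutamate, Flnc was -0.096 with weights, -0.020 without the 3 farthest and -0.084 to 0.097 with single libraries left out, and Actb -0.019 to 0.042. Fblim1, untested in that comparison, ran from -0.16 to 0.018 over all settings. For glutamate over control, Flnc was 0.0042 with weights, 0.035 without the 3 farthest and -0.096 to 0.070 with single libraries left out. For all stimulated over control, Actg1 was -0.032 with weights, -0.023 without the 3 farthest and -0.0098 to 0.023 with single libraries left out, Myh9 -0.020 to 0.012, and Tln1 0.0010 with no filter, 0.0055 with weights, 0.0011 with the block, 0.0040 without the 3 farthest, 0.0044 with the GC offset, 0.0055 with the offset and the block, and -0.019 to 0.035.

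Counts of genes past the threshold moved far more. For TPA against zinc (74) they were 456 by DESeq2, 41 with no filter, 3131 with weights, 422 with the block, 6 in the 2 groups alone, 1149 without the 3 farthest, 32 with the GC offset, 243 with offset and block, and 5 (without zinc replicate 3) to 899 (without zinc replicate 4). For TPA against glutamate (0) they were 1 by DESeq2, 484 with weights, 551 without the 3 farthest, 1 with offset and block, and 0 to 2. For zinc against glutamate (0) they were 1 by DESeq2, 107 with weights, 1 without the 3 farthest, and 0 to 3. For glutamate against control (3) they were 5 with DESeq2 size factors, 12 by DESeq2, 59 with weights, 100 without the 3 farthest, 6 with offset and block, 6 with no robust prior, and 2 to 5. For all stimulated against control (7) they were 16, 3, 33, 13 and 11 by DESeq2, with no filter, with weights, without the 3 farthest and with the GC offset, and 3 to 11. With weights, talin, myosin II and other crosslinker lists had 7, 4 and 10 genes past the threshold for TPA against zinc. The causes were not tested.

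The Actb to Actg1 log2 ratio with single libraries left out was -0.16 to -0.12 for TPA against glutamate, -0.16 to -0.094 for TPA against zinc and -0.044 to 0.021 for zinc against glutamate, the only one to change sign. Pairing by replicate number was not settled. Deviations of same-numbered TPA and zinc libraries correlated at 0.011 to 0.26, over 0.1 in 3 of 5 pairs, and 2 of 5 correlated best with their own number. These correlations were 0.024 to 0.50 for zinc and glutamate, -0.070 to 0.20 for TPA and glutamate, and -0.052 to 0.12 for glutamate and control. Under the replicate block the ratio was -0.14 for TPA against glutamate (unadjusted exact p = 0.0625, the smallest that 5 pairs can give), and Srf was 0.26 (edgeR adjusted p = 0.0289). Elk1, Egr1, Egr2 and Fam101b passed for TPA over zinc under the block, at edgeR adjusted p values of 0.0135, 0.0182, 0.0341 and 0.0246. Flnc and Acta2, with fewer than 80 counts a library, are limited by counting error.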
